A study of Mus musculus with 36 samples.

Results

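The comparison described here set BV-2 microglia that received LPS together with monomethyl fumarate (MMF) for 4 h against resting cells that received the vehicle alone, and asked how much of the LPS response remained under MMF. It used 6 of the 36 poly(A) RNA libraries of the series, 3 labelled LPS with MMF at 4 h and 3 labelled DMSO at 4 h, and every gene of their shared table, of which 11440 passed the expression filter. BV-2 is an immortalised mouse microglial line, here wild-type, so all groups share 1 line and the replicates are 3 separate experiments rather than animals. Cells labelled LPS with MMF received 600 ng/mL LPS and 30 µM MMF, which was dissolved in DMSO, and resting cells received DMSO alone. The vehicle was at 0.2% in all groups, and all cells were kept in 0.1% serum. No MMF group without LPS was analysed here, so an effect of MMF and an effect of LPS can be separated only through the LPS libraries at 4 h (600 ng/mL LPS, n = 3). The libraries labelled LPS with DMF (30 µM dimethyl fumarate with LPS), LPS with CBD (6 µM cannabidiol with LPS) and EtOH (the vehicle of CBD), each n = 3 at 4 h, and the 24 h libraries of LPS with MMF and of DMSO are used where named.

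LPS, a lipopolysaccharide of the Gram-negative cell wall, is bound by CD14 and sensed by the Tlr4 receptor complex, which activates NF-kB, MAP kinases and interferon regulatory factors. In microglia this programme produces cytokines, chemokines and enzymes such as the inducible nitric oxide synthase, together with inhibitors that later close it. MMF is the monoester that remains when dimethyl fumarate loses 1 of its methyl groups, and fumarate esters modify cysteines of Keap1, which releases the transcription factor Nrf2 to act on antioxidant genes.

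The 6 libraries held 14954118 to 17686908 reads, with 1.83% to 2.26% of reads on mitochondrial genes. Values are the authors' normalized counts, which are reads divided by a size factor for each library, and differences are given as log2 fold changes of the normalized count plus 1 with their standard error (SE). A gene was called when its adjusted p was below 0.05 in limma's moderated test. All 12 myeloid markers were in the table, 2 of them called higher (Adgre1 and Spi1) and 0 lower with LPS and MMF, and their summed level was 87780 to 98902 in DMSO and 89414 to 101121 in LPS with MMF. Astrocyte markers summed to at most 22.1 normalized counts, fibroblast markers to at most 3.2 and lymphocyte markers to at most 20.6 in any of the 6 libraries. Of the homeostatic microglial markers, Sall1 and Fcrls were not in the table, and Siglech was near 0 in both groups (means of 1.02 and 0.31). Oligodendrocyte markers were at 1007 to 1328 normalized counts in the 6 libraries, nearly all of it Mbp, which was called lower (-0.29), and neuron markers at 105 to 201. Mbp was not called whichever of the 6 libraries was left out.

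Under LPS with MMF, 940 of 11440 genes were called (8.22%), 586 higher (5.12%) and 354 lower (3.09%) than in DMSO. In bulk RNA fewer cells expressing a gene and less RNA of it in each cell cannot be told apart, and the p-values measure the spread between these libraries. An absolute log2 fold change above 1 was found for 236 called genes (2.06%). Among higher genes the median log2 fold change was 0.76, and 215 (1.88%) exceeded 1 and 21 exceeded 3. Among lower genes the median was -0.48, and 21 (0.184%) fell by more than 1. The 3 libraries of one group lay wholly beyond the other for 585 of the 586 and for all 354, and this held for 26.4% of all tested genes, called or not. The call count was 868 without DMSO replicate 5 and 468 without DMSO replicate 6, the lowest with any single library left out.

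The largest rises were in interleukins, growth factors and chemokines. Il1b, the cytokine interleukin-1 beta (GRCm39 chr2:129206490-129213059), had 9.64, 39.9 and 14.7 normalized counts in DMSO and 1253, 2592 and 1377 in LPS with MMF. Its log2 fold change was 6.44 ± 0.44 (SE, adjusted p = 2.29e-05), and the groups lay far apart, with replicate 5 the highest in DMSO and replicate 2 the highest in LPS with MMF. Cxcl2, a chemokine that recruits neutrophils (chr5:91051730-91053797), had 135, 243 and 124 counts in DMSO and 10146, 8662 and 7815 in LPS with MMF, a log2 fold change of 5.78 ± 0.22 (adjusted p = 5.31e-07). Every LPS with MMF library was far above every DMSO library. Csf3, the granulocyte growth factor, had 0, 5.25 and 4.20 counts in DMSO and 245, 196 and 171 in LPS with MMF. It was close to absent at rest and well measured in every treated library. Ccl20, a chemokine for dendritic cells and lymphocytes, had 1 read in the 3 DMSO libraries together and 190 in the 3 LPS with MMF libraries, a ratio of 182 with a 95% exact counting interval of 32.2 to 7212. The interval covers counting error only.

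Il1a, the other interleukin-1 form, rose by a log2 fold change of 5.49 ± 0.31, and the related cytokines Il36a and Il36g by 4.80 ± 0.44 and 3.95 ± 0.21. Enzymes and secreted proteins followed. Nos2, the inducible nitric oxide synthase, had 20.2, 255 and 73.6 counts in DMSO and 1195, 3262 and 2046 in LPS with MMF and rose by 4.76 ± 0.72 (adjusted p = 0.00313). The resting libraries were widely spread, with replicate 5 the highest, yet all stayed below the lowest LPS with MMF library. Acod1, which makes itaconate, went from 470, 982 and 506 counts to 8045, 10477 and 7713, a rise of 3.81 ± 0.24. Its highest resting library was again replicate 5, and no library of one group reached the other. The collagenase gene Mmp13 rose by 4.41 ± 0.37, the iron-siderophore carrier Lcn2 by 3.72 ± 0.55 and the glycosyltransferase gene A4galt by 3.75 ± 0.50.

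The falls were smaller, and several of the 8 largest were in receptors and signalling proteins. Gpr183, a receptor for oxysterols (GRCm39 chr14:122189963-122202607), had 638, 634 and 623 counts in DMSO and 297, 225 and 286 in LPS with MMF, a log2 fold change of -1.24 ± 0.12 (adjusted p = 0.000173). Arhgef18, a guanine nucleotide exchange factor (chr8:3403415-3506601), had 151, 146 and 148 counts against 55.4, 53.0 and 59.0, a log2 fold change of -1.40 ± 0.14 (adjusted p = 0.000305). In these genes both groups were tight, and they did not overlap. Lifr, the receptor of leukemia inhibitory factor, had 238, 332 and 308 counts against 115, 123 and 126 (-1.25 ± 0.14), and S1pr1, a sphingosine 1-phosphate receptor, 158, 137 and 173 against 79.2, 40.0 and 65.6 (-1.38 ± 0.24). Each treated library was below each resting one. The Ras exchange factor Rasgrp3 (-1.10 ± 0.14), the polarity protein Vangl2 (-1.18 ± 0.23), Hid1 (-1.08 ± 0.20) and the zinc finger gene Zfp395 (-1.50 ± 0.30) completed the 8 largest falls. Vangl2, Hid1 and Zfp395 were not called without DMSO replicate 6, nor was Zfp395 without LPS with MMF replicate 3.

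**Figure D1:**
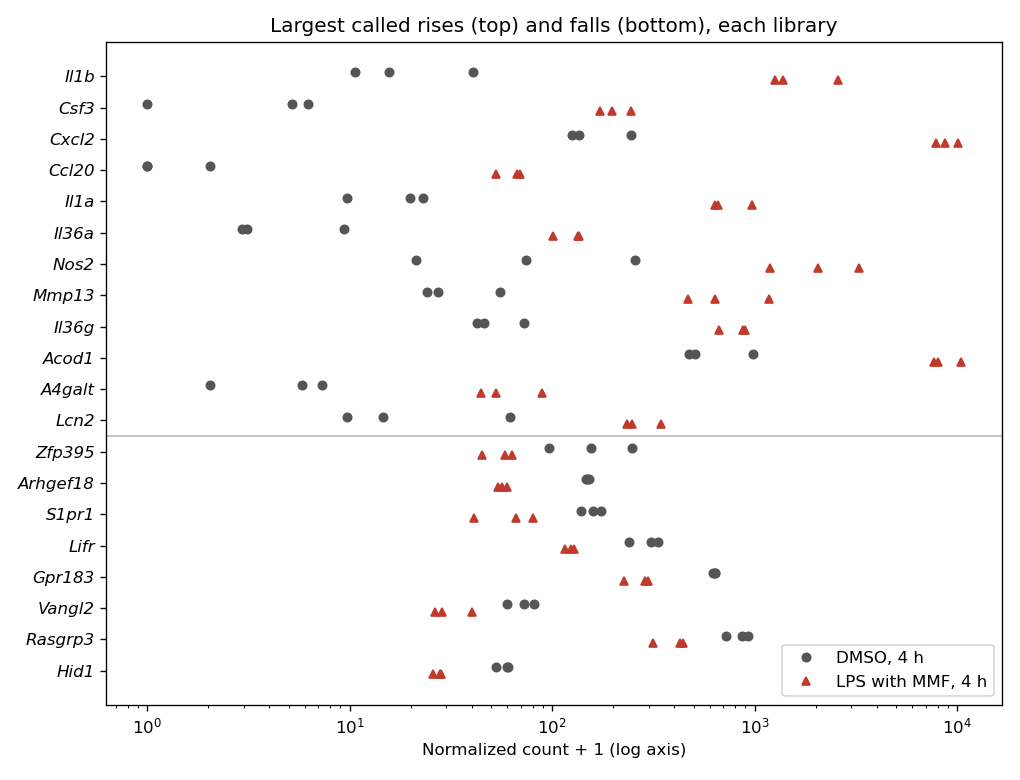
Normalized count plus 1 on a log axis, 1 point per library, for the 12 largest called rises and the 8 largest called falls. For each gene the 3 LPS with MMF libraries (triangles) lie wholly beyond the 3 DMSO libraries (circles), as the naming rule required, and the rises span a wider range than the falls.

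DNA near the start of a gene can carry binding sites for NF-kB, AP-1, interferon regulatory factors and Nrf2, and such motifs were counted in promoter windows credited to RefSeq (250 bases before to 50 after each start, build GRCm38.p6), on both strands; 474 of the 586 higher and 264 of the 354 lower genes had a window. Each share is of the genes with a window, and a match in any window of a gene counted. The kB motif (GGG and TTTCC with any 2 bases between) was in 6.33% of higher genes, 1.14% of lower genes and 2.06% of all tested genes. AP-1 (TGANTCA) was in 12.4%, 6.82% and 6.32%, and the interferon response motif (GAAA repeated after any 2 bases) in 8.86%, 1.52% and 3.92%. The CRE letters TGACGTCA were in 3.38%, 1.52% and 3.71%, and the antioxidant response letters TGACNNNGC in 19.8%, 16.3% and 17%. The AP-1 and antioxidant letters can overlap. These shares are a description, not tests, and a match is not a binding site. No kB match was found before the starts of Il1b and Csf3, nor a match to TGACNNNGC before those of Slc7a11, Hmox1, Srxn1 and Slc48a1. Other forms of the antioxidant letters were not searched. An AP-1 match of Srxn1, 45 bases before its start, reads on as TGAGTCAGC, which differs from TGACNNNGC only in the base after TGA. Lifr, which fell, had an antioxidant match. Stretches of 60 bases, with 1 match of the named motif in capitals, are shown for some genes that had a match, 5′ to 3′ on the gene's strand.
Cxcl2, kB, chr5:90903777-90903836, plus strand: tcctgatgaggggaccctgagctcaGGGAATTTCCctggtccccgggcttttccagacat
Cxcl3, kB, chr5:90786003-90786062, plus strand: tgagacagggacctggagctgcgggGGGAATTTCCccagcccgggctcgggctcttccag
Il6, kB, chr5:30013045-30013104, plus strand: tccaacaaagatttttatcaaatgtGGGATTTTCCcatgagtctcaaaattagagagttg
Mmp13, AP-1, chr9:7272452-7272511, plus strand: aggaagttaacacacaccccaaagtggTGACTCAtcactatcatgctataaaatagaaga
Srxn1, AP-1, chr2:152105395-152105454, plus strand: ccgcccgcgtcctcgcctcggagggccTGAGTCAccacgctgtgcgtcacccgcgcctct
Gclm, antioxidant response, chr3:122245397-122245456, plus strand: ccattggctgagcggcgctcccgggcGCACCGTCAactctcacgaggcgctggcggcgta
Txnrd1, antioxidant response, chr10:82859088-82859147, plus strand: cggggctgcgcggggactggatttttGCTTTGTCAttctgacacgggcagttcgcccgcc
The Cxcl2 stretch holds a second kB match, GGGCTTTTCC, left in lower case there. Cxcl2 and Cxcl3 share the same 10 capital letters, and they rose by 5.78 and 3.34. In Gclm and Txnrd1 the letters are matched on the opposite strand.

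Of the cytokine and growth factor list, 12 of 18 tested members rose and 0 fell, with a median log2 fold change of 1.004 beside -0.0011 over all tested genes. Of all tested genes 5.12% rose and 3.09% fell. Tnf, the tumour necrosis factor, had 1375, 1333 and 1165 counts in DMSO and 7194, 5418 and 5566 in LPS with MMF, a log2 fold change of 2.22 ± 0.11 (adjusted p = 2.96e-06). Resting cells already held Tnf in every library, and the groups did not overlap. Il1rn, which blocks the interleukin-1 receptor, rose by 2.06 and Il6 by 3.10 ± 0.39, while Il18 (0.51, adjusted p = 0.47) and Vegfa (0.04, adjusted p = 0.93) did not pass. Of the chemokines, 10 of 14 tested rose and 0 fell (median 2.19), among them Cxcl3 (3.34 ± 0.21), Ccl4 (2.83 ± 0.10), Ccl3 (2.75 ± 0.17) and Cxcl10 (2.81 ± 0.40). Ccl5 had a log2 fold change of 1.27 with an adjusted p of 0.056.

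Among sensors of LPS the change was uneven. The receptor Tlr4 itself did not pass (558, 568 and 521 counts against 480, 496 and 524, log2 fold change -0.13, adjusted p = 0.416), nor did the adaptor Myd88 (0.21, adjusted p = 0.165) or its partner Tirap. Cd14, the LPS co-receptor, rose by 0.83 ± 0.08, Tlr2 by 1.25 ± 0.08 and the signalling kinase gene Irak2 by 1.71 ± 0.12. In all, 7 of 21 tested members rose and 0 fell, beside 5.12% and 3.09% of all tested genes. Of the NF-kB list 14 of 20 rose and 0 fell (median 0.999). The inhibitors and atypical IkB members Nfkbiz (2.90 ± 0.12), Bcl3 (1.69 ± 0.19) and Nfkbia (1.63 ± 0.15), the kinase Ikbke (2.18 ± 0.08) and the ubiquitin-binding inhibitor Tnip1 (1.67 ± 0.08) were among them. The subunit Rela, at 0.21, had an adjusted p of 0.065, and the kinases Chuk and Ikbkb did not pass.

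Over all tested genes 5.12% were called higher and 3.09% lower. Feedback genes rose as well. Of 16 tested, 9 rose and 1 fell (median 0.69): the RNA-degrading enzymes Zc3h12a (2.58 ± 0.13) and Zc3h12c (2.04 ± 0.10), and the STAT inhibitors Socs1 (2.44 ± 0.37), Cish (2.04 ± 0.21) and Socs3 (1.59 ± 0.09) rose, and the RNA-binding protein Zfp36l2 fell (-0.63). Of 22 immediate early factors 5 rose and 2 fell, Ier3 (1.60 ± 0.20) and Atf3 (1.43 ± 0.20) among the former and Fos (-0.84 ± 0.15) and Klf10 (-0.83 ± 0.18) the latter. Among surface molecules 13 of 22 rose, among them Cd69 (2.59), the death receptor Fas (2.53 ± 0.26), the lectin Clec4e (2.08 ± 0.12) and the adhesion molecule Icam1 (1.29 ± 0.12). Of the effector list 11 of 20 rose. Ptgs2, which makes prostaglandins, reached 21824, 27872 and 22630 counts from 2675, 4232 and 3172. Of the cell death and survival list 12 of 22 rose and 1 fell, with Traf1 (2.96 ± 0.43), Casp4 (2.12 ± 0.26) and Nlrp3 (1.23 ± 0.08) rising. The near-identical Bcl2a1 copies also rose, and reads between them cannot be assigned with certainty.

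About as many interferon-response genes were called as not, and here 1 library of each group stood above the rest of its group. Of 29 tested, 15 rose and 0 fell, with a median log2 fold change of 1.31, led by Gbp5 (3.59), Mx1 (2.96), Rsad2 (2.95) and Cmpk2 (2.93), which encode antiviral proteins. Rsad2 had 199, 538 and 298 counts in DMSO and 1571, 3966 and 2370 in LPS with MMF, and the groups did not overlap. The summed level of the 30 list genes was 7984, 21044 and 11893 normalized counts in DMSO replicates 4, 5 and 6 and 22365, 45420 and 28748 in LPS with MMF replicates 1, 2 and 3. DMSO replicate 5 was the highest resting library and LPS with MMF replicate 2 the highest treated library. Without DMSO replicate 5, but with LPS with MMF replicate 2 kept, 26 of the 29 were called. Without LPS with MMF replicate 2, 11 were called, and without DMSO replicate 6, 10. LPS alone against the same resting libraries gave 22 called higher. Over all genes LPS alone also called more higher, 7.7% against 5.12% for LPS with MMF. Directly against LPS, the median of the 29 was -0.44 (all genes, -0.0045), limma, edgeR and DESeq2 called 0 in either direction, and 6 had an unadjusted p below 0.05 in limma, so a difference between LPS with MMF and LPS was not shown for this list.

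In other programmes fewer list members were called than in the cytokine, chemokine, NF-kB and interferon lists. Of all tested genes 8.22% were called, 5.12% higher and 3.09% lower. Of 20 sterol synthesis genes and 20 cell division genes, limma, edgeR and DESeq2 each called 0 in either direction, while 2 and 3 of them had an unadjusted p below 0.05 in limma. Of 14 genes of cholesterol efflux and lipid handling 1 rose, the fatty acid carrier Fabp5 (0.48), and 2 fell, the lipogenic regulator Srebf1 (-0.38) and the desaturase Scd2 (-0.38). With 1 library left out, Scd2 was called only without LPS with MMF replicate 2. Of 3 tested metallothionein and zinc genes 0 were called by any of the 3 tools, and 0 had an unadjusted p below 0.05. Of 20 glycolysis and hypoxia genes 1 rose (Hif1a, 0.56 ± 0.06), of 18 ATF4 genes 3 rose (Cebpb 0.80, Slc3a2 0.51 and Atf4 0.34), of 13 antigen presentation genes 2 rose (H2-K1 0.48 and Psmb10 0.30) and of 14 G1 genes 1 rose and 3 fell, among them Ccnd1 (-0.50). Of the 15 tested homeostatic genes 0 rose and 3 fell: Tmem119 (-1.05 ± 0.26), the purine receptor P2ry13 (-0.98 ± 0.22) and the transcription factor Mef2c (-0.32 ± 0.07). These 3 falls depended on single libraries: with 1 left out, 0 to 2 were called, 0 without DMSO replicate 6 or LPS with MMF replicate 1. Cx3cr1 (-0.06) and Csf1r (0.09) did not pass. Atf4 was not called whichever of the 6 libraries was left out. With 1 library left out, 0 to 1 of the G1 genes rose and 1 to 3 fell. Of the antigen presentation genes 0 were called without DMSO replicate 6 or LPS with MMF replicate 2 or 3, 3 without DMSO replicate 5, and DESeq2 called 4.

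**Figure D2:**
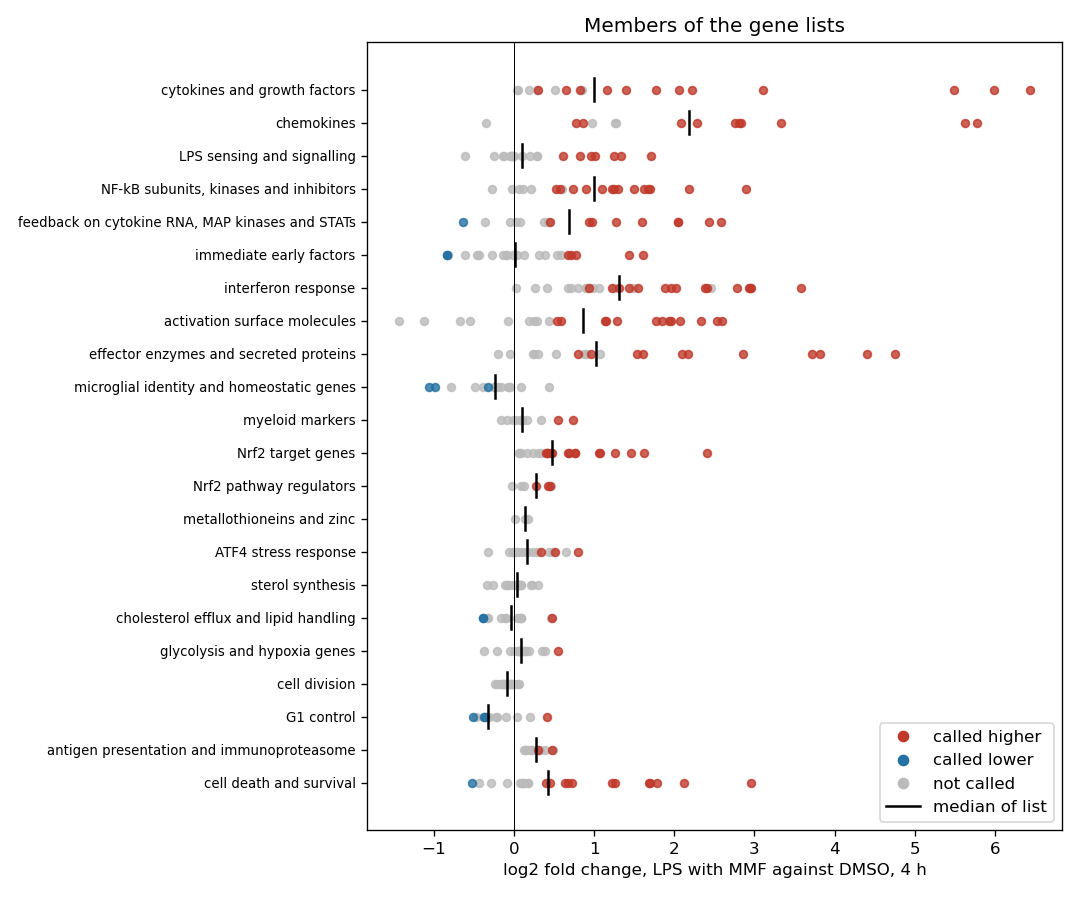
Log2 fold change of each tested member of 22 gene lists, LPS with MMF against DMSO at 4 h, coloured by call, with the list median as a black bar. The medians of the cytokine, chemokine, NF-kB, interferon and Nrf2 target lists lie to the right of 0, and sterol synthesis and cell division genes, none of them called, lie around 0.

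To describe how much activation remained, a panel of activated genes was taken from other libraries, LPS with CBD and EtOH at 4 h, which carry the same replicate numbers and in which replicate 2 of LPS with CBD was again the highest of its group (1.79): the 294 genes called higher in LPS with CBD than in EtOH with a log2 fold change above 1, of which 282 were tested in all comparisons. The panel rose under LPS with MMF by a median of 1.30, and 216 of the 282 (76.6%) were called higher and 0 lower. The choice by fold in LPS with CBD covered 2.56% of the genes tested there. CBD was present in the libraries that chose the panel, so it can hold genes that LPS alone did not raise. An example is Slc30a1, with a log2 fold change of 0.05 in LPS against DMSO. LPS alone, which shares the DMSO libraries, gave a median of 1.49 and 244 called higher; over all genes that comparison called 14.1%, 7.7% higher. Directly between LPS with MMF and LPS the median was -0.14, with 1 gene called higher and 1 lower. By library the panel's median distance from the DMSO mean was 1.13, 1.58 and 1.22 in LPS with MMF replicates 1 to 3 and 1.34, 1.69 and 1.43 in LPS replicates 1 to 3, and each LPS with MMF library was below the LPS library of the same number while the ranges of the groups overlapped. DMSO replicates 4, 5 and 6 stood at -0.25, 0.28 and -0.02.

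**Figure D3:**
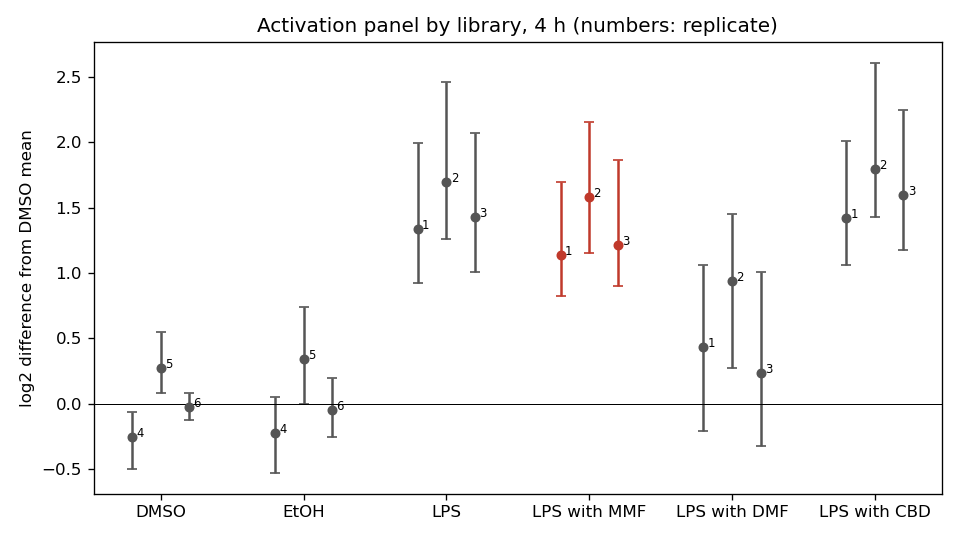
Median (points) and quartiles (bars) over 282 activation panel genes of the log2 distance from the DMSO mean, for each 4 h library on a joint scale of 18 libraries. LPS with MMF libraries (red) sit between 1.13 and 1.58, and LPS libraries between 1.34 and 1.69. The LPS with CBD and EtOH libraries chose the panel.

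The direct test against LPS addressed what MMF changed. It called 14 of 11431 genes (0.122%), 9 higher (0.0787%) and 5 lower (0.0437%), and 843 had an unadjusted p below 0.05. The count was 13 with edgeR, 54 with DESeq2 and 28 in a fit of all 18 libraries of 4 h. Of the 14, 13 are described here. For Il1b the difference was -0.14 with a 95% interval of -1.04 to 0.75, for Cxcl2 0.11 (-0.17 to 0.39), for Tnf -0.18 (-0.43 to 0.08) and for Nos2 0.11 (-0.98 to 1.20). The chemokines Ccl7 (-1.33, -2.09 to -0.56) and Ccl2 (-0.85, -1.35 to -0.35) had intervals below 0 but did not pass across all genes (adjusted p = 0.418 for both).

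Nrf2 target genes made up 6 of the 9 genes that were higher than with LPS alone. Slc7a11, the cystine transporter (GRCm39 chr3:49846975-50398063), had 937, 893 and 842 counts in DMSO, 2289, 2026 and 1846 in LPS, and 4613, 5284 and 4368 in LPS with MMF on the joint scale. Its log2 difference from LPS was 1.21 ± 0.10 (adjusted p = 0.00428) and from DMSO 2.41 ± 0.08. Hmox1, the heme-degrading enzyme (chr8:75820249-75827217), had 3128, 3486 and 3535 counts in DMSO, 3424, 4558 and 3493 in LPS and 7679, 9221 and 7554 in LPS with MMF, 1.10 above LPS and 1.27 above DMSO. The other 4 were Srxn1, which restores peroxiredoxins (1.11 above LPS), Gclm of glutathione synthesis (0.81), the heme transporter Slc48a1 (0.75) and the thioredoxin reductase Txnrd1 (0.70). In the comparison with DMSO, 15 of 23 tested Nrf2 target genes rose and 0 fell (median 0.48). Against the same DMSO libraries LPS alone gave 5. Over all genes 5.12% were called higher with LPS and MMF and 7.7% with LPS alone. The transcripts of Nrf2 itself (Nfe2l2, log2 fold change -0.02, adjusted p = 0.90) and Keap1 (0.09, adjusted p = 0.651) did not pass, while its partners Mafk (0.45) and Mafg (0.28) and the related factor Nfe2l1 (0.43) rose, so 3 of 7 regulators were called higher. With 1 library left out, 1 to 3 regulators were called. Mafg was kept only without LPS with MMF replicate 3, and Mafk was lost without DMSO replicate 6.

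The other genes above LPS were Slc22a23 (1.08), Rusc2 (0.62) and Tshz1 (0.58). Below LPS were Fos (-0.97 ± 0.14), the nucleoside transporter Slc28a2 (-0.93), the receptor Gpr174 (-0.93) and the lipid droplet protein Plin2 (-0.53). Fos had 470, 555 and 549 counts in LPS and 301, 293 and 213 in LPS with MMF on the joint scale, with 410, 534 and 494 in DMSO, so all LPS with MMF libraries were below those of both other groups. Plin2 (0.04 against DMSO, adjusted p = 0.844) and Gpr174 (-0.22, adjusted p = 0.403) did not pass against resting cells, and Slc28a2 rose there by 0.69. Whichever library was left out, Slc7a11 was still called, and each of the other 13 was lost in at least 1 such fit. The number of genes called was 63 without LPS replicate 2, 9 without LPS replicate 1 and 1 to 3 without any of the other 4 libraries.

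**Figure D4:**
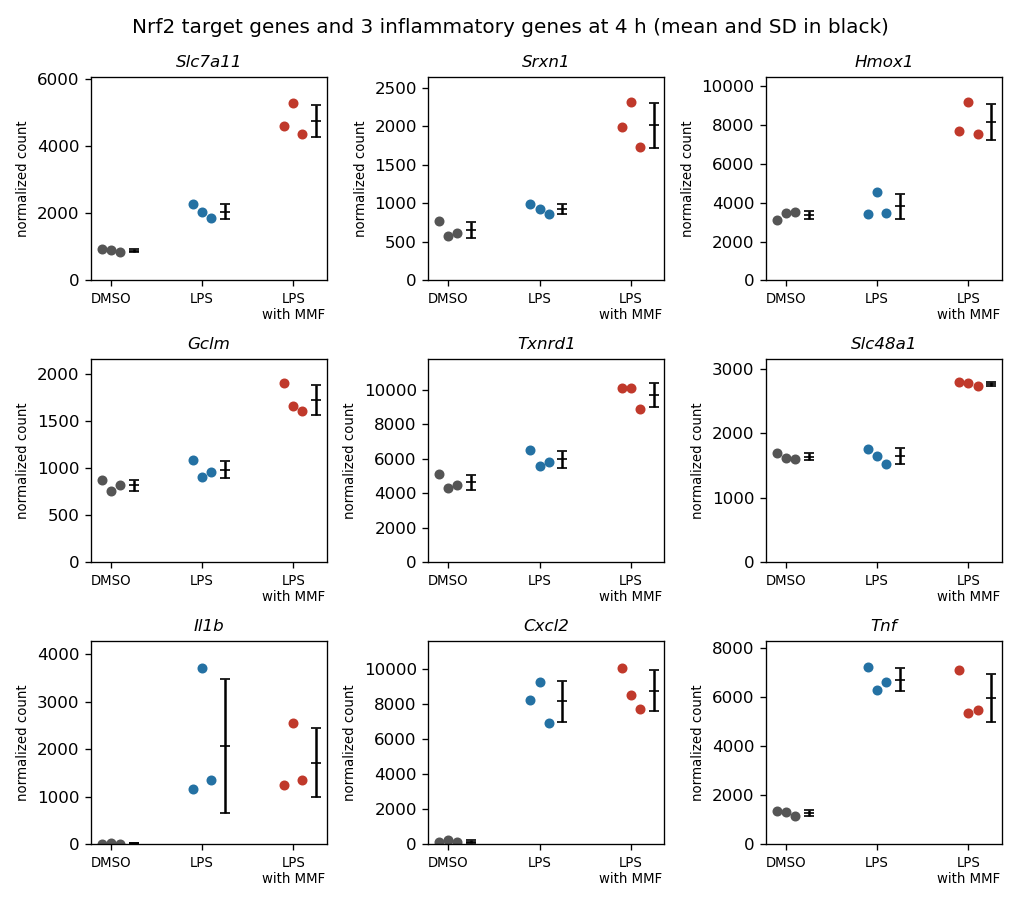
Normalized counts on the joint scale of 4 h libraries for 6 Nrf2 target genes and 3 inflammatory genes in DMSO, LPS and LPS with MMF, 1 point per library with mean and SD in black. The Nrf2 targets are highest in LPS with MMF, and Il1b, Cxcl2 and Tnf overlap between LPS and LPS with MMF.

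DMF, the diester from which MMF derives, was given at the same 30 µM dose and time. Between the 2 compounds under LPS, the 1 pair compared, 949 of 11377 genes were called (8.34%), 383 higher (3.37%) and 566 lower (4.97%) with DMF. Of 24 Nrf2 targets 22 were higher with DMF and 0 lower (median 1.01), with Hmox1 2.37 (2.08 to 2.65) and Srxn1 2.35 higher. Il1b was lower with DMF by 2.95 on the log2 scale (adjusted p = 0.022), and Nos2 fell by 3.91 (adjusted p = 0.00899). Of 29 interferon-response genes 24 were lower and 0 higher. Of 14 tested chemokines 7 were lower and 0 higher with DMF (median -0.71), among them Ccl20 at -3.33 (adjusted p = 0.000612). Cxcl2 did not pass, at -0.08 with an interval of -0.53 to 0.38, nor did Ccl3, at -0.35 with -0.75 to 0.06. The count of calls was 310 without LPS with DMF replicate 3, and 390 to 539 without any 1 of the LPS with MMF libraries.

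The response differed with exposure time for part of the genes. The test of the difference between the effect of LPS with MMF against DMSO at 24 h and at 4 h, over 12 libraries, called 868 of 11857 genes (7.32%), 3.9% with a positive and 3.42% with a negative difference. Of the 586 genes higher at 4 h, 135 were called with a smaller effect at 24 h and 31 with a larger one, and of the 354 lower genes 104 and 3. These genes were chosen on the 4 h libraries that also enter the test, which favours a smaller effect at 24 h, so the counts are a description. The log2 fold change of Cxcl2 was 5.78 at 4 h and 3.38 ± 0.20 at 24 h, with means of 167 and 790 normalized counts in DMSO and 8843 and 8282 in LPS with MMF on the joint scale of both times. For Ccl4 it was 2.83 and 0.84 ± 0.11, with means of 259 and 895 in DMSO and 1854 and 1597 in LPS with MMF. For Nfkbiz it was 2.90 and 1.79 ± 0.14, with means of 241 and 628 in DMSO and 1799 and 2203 in LPS with MMF. In these 3 genes the resting level was higher at 24 h. Hmox1 had a log2 fold change of 1.27 and -0.40 ± 0.10, with DMSO means of 3422 and 9273 and LPS with MMF means of 8227 and 6993. Sqstm1, the autophagy receptor, had 1.46 and -0.27 ± 0.07, with DMSO means of 4912 and 12285 and LPS with MMF means of 13430 and 10141. Their resting levels at 24 h exceeded the mean of LPS with MMF at that time. Il1b (6.13 ± 0.36 at 24 h) and Tnf (1.80 ± 0.07) did not pass the test of the difference, and Lcn2 reached 7.47 ± 0.20 at 24 h. The count of 868 was 528 without DMSO 24 h replicate 6, 542 without LPS with MMF 24 h replicate 3 and 561 without DMSO 4 h replicate 6.

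**Figure D5:**
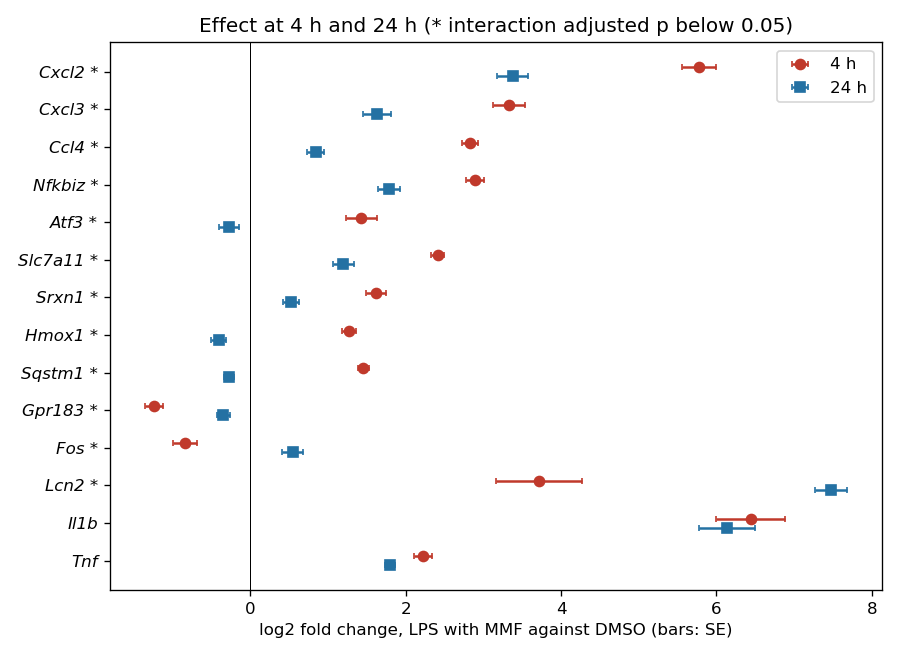
Log2 fold change of LPS with MMF against DMSO with its SE at 4 h and 24 h, each from its own table, for 14 genes. The 12 genes with an asterisk had an interaction adjusted p below 0.05, and Il1b and Tnf did not.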

How the data were processed

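BV-2 cells of 12 groups of 3 libraries were sequenced. Per the labels and the study's methods, the authors used cutadapt 4.4 and Trimmomatic 0.39 for trimming, HISAT2 2.2.1 for alignment to GRCm39, and counted reads per gene with HTSeq 2.0.3; the strand setting is not given in the sources used here. The authors deposited tables for pairs of groups whose values are gene counts divided by DESeq2 1.40.2 size factors, a signal; all 827016 values used gave whole reads within 0.01. Their columns of fold changes and p-values were not used. Here log2(value + 1) was fitted with limma 3.58.1 (R 4.3.3, trended variance) on genes with at least 10 normalized counts in 3 of 6 libraries, with Benjamini-Hochberg adjustment; edgeR 4.0.16 and DESeq2 1.42.0 on the recovered reads were alternatives. The interaction used joint factors over 12 libraries. Members and gene lists were chosen with earlier results of these data known, and some were named by the study from these libraries. Named were the 12 largest called rises and 8 largest falls with a mean of at least 50 counts and groups apart, up to 4 called genes of each list with members whose role needed a value, and all calls against LPS, of which 1 gene is not reported here by name. The scripts were tested on simulated data. Replicate experiments are separate cultures of 1 line.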

Additional observations from a re-analysis of the deposited data

Results flagged for a closer look

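The effect of LPS with MMF against DMSO differed between 24 h and 4 h for 868 genes, by a test of the difference itself. Among the genes with the largest changes at 4 h, the log2 difference between the effects was -2.40 for Cxcl2 (adjusted p = 0.000901), -2.85 for Ccl20 (adjusted p = 0.0297), 3.76 for Lcn2 (adjusted p = 0.00409), 0.89 for Gpr183 (adjusted p = 0.00226) and 1.19 for Vangl2 (adjusted p = 0.0396). Cxcl2 and Ccl20 had a smaller effect at 24 h. For Cxcl2 the DMSO mean was 167 normalized counts at 4 h and 790 at 24 h, and that of LPS with MMF 8843 and 8282, whereas for Ccl20 the DMSO mean was near 0 at both times and that of LPS with MMF was 61.7 and 6.44. Lcn2 had a larger effect at 24 h, with LPS with MMF means of 273 and 5956. Gpr183 fell less at 24 h, with a log2 fold change of -0.35 (adjusted p = 0.0126). Its DMSO means were 632 at 4 h and 566 at 24 h, and its LPS with MMF means 268 and 443. For Vangl2 no fall was shown at 24 h (log2 fold change 0.01, adjusted p = 0.974). Its DMSO means were 70.0 and 81.0, and its LPS with MMF means 30.5 and 79.3.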

How the results depend on the processing

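The 940 calls against DMSO became 950 with a pseudocount of 5, 905 without a filter, 939 with TMM factors, 946 with edgeR, 1117 with DESeq2 and 1110 in 1 fit of 18 libraries. With a log2 fold change above 1 required, the counts were 236 (against DMSO), 324 (LPS against DMSO), 5 (against LPS), 266 (DMF against MMF) and 194 (24 h against 4 h). Leaving out 1 library gave 468 to 868 (against DMSO), 663 to 1678 (LPS against DMSO, with 663, 1066 and 768 without DMSO replicate 6, DMSO replicate 5 and LPS replicate 3), 1 to 63 (against LPS), 310 to 1234 (DMF against MMF) and 528 to 842 (24 h against 4 h). Against LPS, DESeq2 called 54 and the fit of 18 libraries 28; DMF against MMF, the latter called 2116. The panel's median was 0.54 with no fold limit and 2.40 with a limit of 2. No paired analysis of LPS with MMF against DMSO was run, because the labels of these groups share no replicate number. Whether pairing would change these calls was not tested. Elsewhere same-numbered libraries did not all deviate together (r 0.576, 0.412 and 0.081 against LPS; 0.278, 0.621 and 0.042 for DMF against MMF; over time 0.317, 0.391 and 0.132 in LPS with MMF but 0.366, 0.362 and 0.0038 in DMSO), and the replicate block gave 179, 1740 and 1484 calls against LPS, between DMF and MMF and for time. For time, 62.2% of calls were higher with TMM and 47.1% with edgeR, against 53.2%. Plin2 against DMSO, not called, ranged from -0.022 to 0.087, turning negative without LPS with MMF replicate 1. The cause of these changes was not tested. Of 84 named called genes, 64 remained called whichever single library was left out. Genes that did not reach 10 normalized counts in 3 libraries were not tested, so small changes in them were not detectable at this depth. Genes near 0 at rest, such as Ccl20 and Csf3, passed this filter only through their LPS with MMF libraries.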
